A study of Mus musculus with 2 samples.

Results

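Hepatocytes with few detected genes were described in the livers of CCl4-treated mice. A cell belonged to this set, called low-gene hepatocytes here, if it had 2000 to 4200 detected genes, at most 5% of its unique molecular identifiers (UMIs, one per captured molecule) in mitochondrial transcripts, no UMI of Ptprc, Pecam1 or Dcn, and at least 1 UMI each of Alb, of Apoa1 and of Cyp2e1 or Cyp2f2. The set held 3946 of 39559 cells. The cells were therefore chosen by measured values, and all their differences from deeper cells are given as a description without a test. They were set beside 7051 reference hepatocytes of 5000 to 7000 detected genes that met the same other conditions.

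The cells came from male p16-Tom mice, heterozygous and on a C57BL/6 background, in which a tamoxifen-inducible Cre expressed from the p16 locus (p16-CreERT2) switches on a floxed-stop tdTomato reporter at Rosa26, so that cells transcribing p16 at the time of tamoxifen stay red. All mice had received CCl4 for 4 weeks and tamoxifen, and no untreated liver was analysed here. Liver pieces were fixed before they were dissociated, and particles positive for a DNA dye (Hoechst) and a mitochondrial dye (MitoBrilliant 646) were sorted into a Tom- and a Tom+ fraction. Each fraction gave 1 library of a probe-based single-cell assay, the number of mice behind a library is not stated, and every difference between Tom+ and Tom- therefore compares 2 libraries and not 2 conditions.

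Hepatocytes make most plasma proteins, and their transcripts for albumin, apolipoproteins and fibrinogen are among the most abundant in the liver. Their other functions are arranged along the lobule. Periportal cells (zone 1) carry out gluconeogenesis, ureagenesis and serine breakdown, whereas cells around the central vein (zone 3) express the glutamine synthetase gene Glul and cytochrome P450 genes such as Cyp2e1. The hepatocyte plates are lined by sinusoidal endothelial cells, Kupffer cells, the resident macrophages, and stellate cells, the main collagen producers. A cell profile with few detected genes can hold less RNA, can have been sampled less deeply, or can be a fragment of a cell, and these states cannot be told apart in the counts alone.

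Low-gene hepatocytes made up 12.4% of the Tom- library (2876 of 23220 cells, 95% Clopper-Pearson interval 11.96 to 12.82) and 6.55% of the Tom+ library (1070 of 16339 cells, 6.17 to 6.94). These intervals and all those below cover counting error only. The window of 2000 to 4200 genes held 5700 Tom- and 1854 Tom+ barcodes, of which 50.9% and 58.3% had no UMI of Ptprc, Pecam1 or Dcn. The same condition was met by 41.7% and 47.3% of the barcodes with 5000 to 7000 genes, so that it removed a larger share of the deeper cells. A total of 69 Tom- and 34 Tom+ low-gene hepatocytes carried a barcode sequence that was found in both libraries.

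The label was checked against hepatocyte markers. The rule required Alb, which had at least 111 UMIs in each Tom- and at least 102 in each Tom+ low-gene hepatocyte. Its median was 111645 and 95257 CPM, the UMIs of a gene as counts per 1e6 UMIs. The 8 hepatocyte markers summed to 178648 CPM in Tom- and 167877 CPM in Tom+ low-gene hepatocytes, beside 183743 and 179122 CPM in the reference. Both values are largely set by Alb, a gene of the rule. Of the 6 markers that the rule did not use, Ttr, the transthyretin gene, was at 21091 against 20883 CPM in the Tom- and 21474 against 23520 CPM in the Tom+ library, and the log2 ratios of all 6 lay between -0.21 and 0.09. The condition on hepatocyte transcripts separated few barcodes within this window. It was met by 99.02% of the Tom- and 99.08% of the Tom+ barcodes there, and by 30 of 31 Tom- and 9 of 9 Tom+ barcodes with at least 5 UMIs of Ptprc, the pan-leukocyte gene, in which Alb had a median of 45555 and 46296 CPM. These barcodes with Ptprc held a median of 241 and 221 Alb UMIs, above the minima given for low-gene hepatocytes. The 46 Tom- and 19 Tom+ barcodes with at least 5 UMIs of Pecam1, an endothelial gene, all met the condition, with a median Alb of 80412 and 44652 CPM. A single UMI of these genes therefore did not set apart barcodes with leukocyte or endothelial transcripts, and the Alb level of the Tom- barcodes with Pecam1 was nearer to that of low-gene hepatocytes.

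By construction the low-gene cells were shallow. Tom- low-gene hepatocytes held 11364 UMIs (median) over 3493 genes, and their reference 34818 UMIs over 5749 genes. Tom+ low-gene hepatocytes held 11119 UMIs over 3457 genes, and their reference 35496 UMIs over 5853 genes. To compare gene numbers at equal depth, each cell was thinned to 1500 UMIs, which left out no cell. The median was then 852 genes in Tom- low-gene hepatocytes (quartiles 832 to 876) and 823 in the reference (788 to 863). For Tom+ cells it was 870 (834 to 904) and 838 (802 to 877). At equal depth the low-gene cells detected slightly more genes, not fewer, and the order was the same at 5000 UMIs (2087 and 1996 genes in Tom-, 2111 and 2036 in Tom+), which left out 126 Tom- and 60 Tom+ low-gene cells. The mitochondrial share had a median of 1.56% in Tom- and 1.53% in Tom+ low-gene hepatocytes, and of 1.24% and 1.49% in the reference.

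Counts were summed over the cells of each class and library, and a gene was counted past 2-fold if it had at least 10 CPM in either sum and 20 UMIs over both. In both libraries on their own, 31 of 7853 genes were at least 2-fold higher in low-gene than in reference hepatocytes, a background of 0.395% of the genes counted, and 0 were 2-fold lower (0%). In the Tom- library alone 115 of 7979 genes were higher (1.44%) and 0 lower (0%), and in the Tom+ library 33 of 8012 (0.412%) and 0 (0%). The number of detected genes chose the cells, so nothing is read from these shares. Most of the genes that passed the minimum kept their proportions, with 96.2% of them in the Tom- and 98.8% in the Tom+ library within 0.5 log2 of the reference and medians of 0.04 and 0.07. Without the CPM minimum 1642 and 948 genes were 2-fold higher, and 20 and 53 were 2-fold lower.

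Of the 31 genes 2-fold higher in both libraries, 12 stood in the marker lists of endothelial cells (5), Kupffer cells and macrophages (4), and stellate cells and fibroblasts (3). In the Tom+ library most of the 31 genes, such as Stab2 and Mrc1, reached 10 CPM in the low-gene class only. Some, such as Col1a1 and Col1a2, did so in both libraries. Such genes could be counted in 1 direction only, and nothing is read from these numbers. Col1a1, a chain of type I collagen on chromosome 11 (94936224-94953042, plus strand, mm10), was at 15.4 CPM in Tom- low-gene hepatocytes and 3.22 CPM in the reference, a log2 ratio of 2.26 (2.07 to 2.45). In Tom+ cells it was at 11.2 and 2.69 CPM (2.06, 1.76 to 2.36). The Tom+ value rested on few cells, since Col1a1 was at 90.7 CPM in the 140 cells of 2000 to under 2500 genes and at 9.36, 8.24 and 4.64 CPM in the next windows of 2500, 3000 and 3500 genes and more, and with members of 3000 to 4200 genes the Tom+ ratio was 1.05. Col1a2 and Col3a1, the other fibrillar collagens of the list, had log2 ratios of 2.21 and 2.00 in Tom- and 1.61 and 1.60 in Tom+. The collagen transcripts were low in both classes, at under 40 CPM.

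Of the Kupffer cell genes, Clec4f, a lectin gene used to mark these cells (chromosome 6, 83644542-83656187, minus strand), was at 70.9 CPM against 24.1 CPM in the Tom- library (log2 1.56, 1.48 to 1.64) and at 49.0 against 17.7 CPM in the Tom+ library (1.47, 1.34 to 1.60). C1qb, a subunit of complement C1q, had ratios of 1.43 and 1.08, and Cd5l, a secreted macrophage protein, of 1.26 and 0.98. Sinusoidal endothelial genes behaved alike. Stab2, a hyaluronan scavenger receptor, was at 37.4 against 12.4 CPM in Tom- and 24.2 against 9.08 CPM in Tom+ cells, and Mrc1, the mannose receptor, had ratios of 1.67 and 1.52. The remaining genes with the largest ratios in both libraries were Clec1b, a lectin receptor (1.95 and 2.01), Fyb, an adaptor of immune cell signalling (1.96 and 1.90), Csf2ra, a receptor chain for GM-CSF (1.76 and 1.68), Stab1, a scavenger receptor (1.72 and 1.53), and Ptgs1, which encodes cyclooxygenase-1 (1.52 and 1.63). Each of these remaining genes was under 10 CPM in the reference of both libraries, and so could be counted in 1 direction only. The rule had set Pecam1 of the endothelial list, Dcn of the stellate list and Ptprc of the leukocyte list to 0 in both classes.

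**Figure D1:**
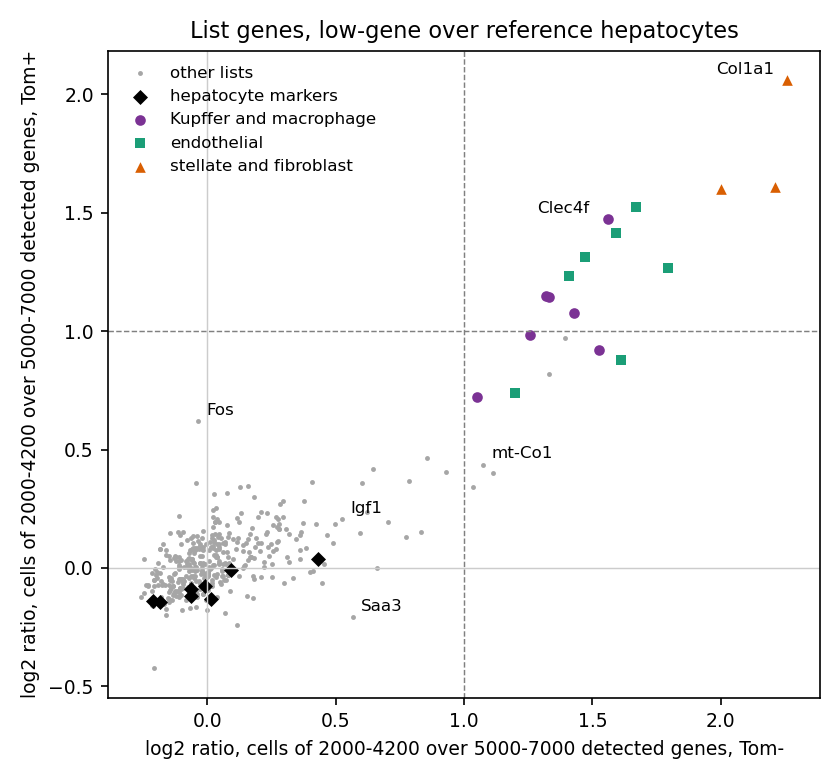
Each point is a gene of the lists, with the log2 ratio of its CPM in low-gene over reference hepatocytes in the Tom- library (x axis) and in the Tom+ library (y axis); colours and symbols give the list and dashed lines mark 2-fold. Endothelial, Kupffer cell and stellate markers sit at the upper right, with Col1a1 at 2.26 and 2.06, while hepatocyte markers lie near 0 except for Apoa1 at 0.43 in the Tom- library.

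Summed over whole lists, the 10 Kupffer cell and macrophage markers summed to 589 CPM in Tom- low-gene hepatocytes and 234 CPM in the reference, and to 389 and 187 CPM in the Tom+ library. The 10 endothelial markers summed to 240 and 82.4 CPM in the Tom- and to 139 and 59.8 CPM in the Tom+ library. The stellate and fibroblast list was at 106 and 28.5 CPM, and at 67.5 and 26.8 CPM. Col1a1, Col1a2 and Col3a1 were at 15.4, 39.3 and 29.1 CPM in Tom- low-gene cells, and at 11.2, 19.7 and 19.4 CPM in Tom+ ones. These collagens thus made up most of the stellate list, and its sums do not describe the other stellate markers. The 9 markers of other leukocytes were at 10.6 and 2.66 CPM in the Tom- library and at 4.13 and 2.75 CPM in the Tom+ library, and their defining marker Ptprc was at 0 by the rule. Without any minimum, the 9 endothelial markers other than Pecam1 had log2 ratios from 1.20 to 1.79 in the Tom- library and from 0.74 to 1.52 in the Tom+ library. The 10 Kupffer cell markers lay between 0.72 and 1.56, and between 0.72 and 1.47. Whether these UMIs came from free RNA, from attached cells or from the low-gene cells themselves was not tested.

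Within low-gene hepatocytes these transcripts rose as detected genes fell. In the Tom- library the Kupffer cell list was at 460 CPM in cells of 3500 to 4200 genes, 672 CPM from 3000 to under 3500, 729 CPM from 2500 to under 3000 and 1288 CPM from 2000 to under 2500 genes. In the Tom+ library the same windows had 241, 318, 714 and 1493 CPM. Cells with fewer than 2000 genes that met the other conditions continued the order, with 2226 CPM in the Tom- library and 2750.5 CPM in the Tom+ library. The windows next to the limits of the rule held 26 to 226 cells each. In Tom- cells Alb was at 97114 CPM just below 2000 genes and 100072 CPM just above, and at 114820 CPM just below 4200 genes and 112369 CPM just above, each in a window spanning 100 gene numbers. In Tom+ cells the corresponding Alb values were 84633, 85332, 107069 and 107805 CPM. The Kupffer cell list was at 2100.2 CPM just below and 1113 CPM just above 2000 genes in Tom- cells, and at 1395 and 1453 CPM in Tom+ cells, and at the upper limit it was at 361 and 355 CPM in Tom- and at 164 and 248 CPM in Tom+ cells. Alb thus differed little across each limit, while the Kupffer cell list stepped down at the lower limit in the Tom- library. Cyp2f2 was at 136 and 172 CPM across the lower limit in Tom- cells and at 158 and 114 CPM in Tom+ cells.

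**Figure D2:**
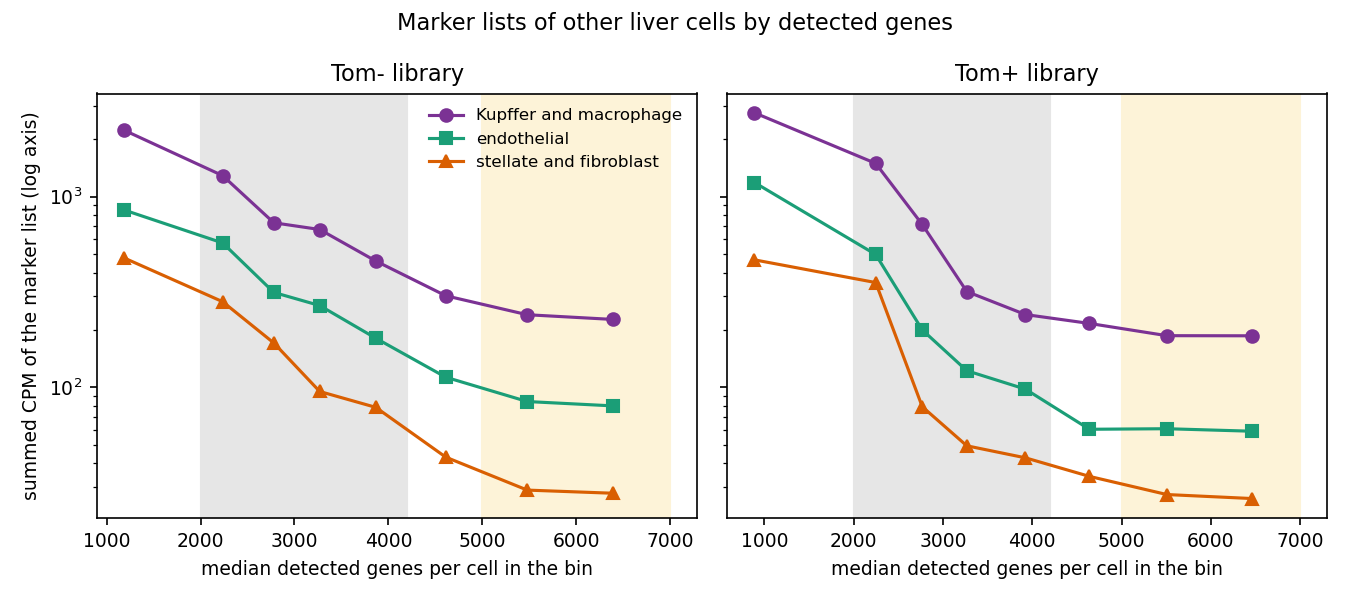
Summed CPM (log axis) of the Kupffer cell, endothelial and stellate marker lists in bins of cells ordered by detected genes, with 1 panel per library; the grey band marks low-gene and the yellow band reference hepatocytes. Points stand at the median gene number of each bin. The Kupffer cell list fell from 2226 to 227 CPM from left to right in the Tom- library, and the endothelial list levelled off near 60.7 CPM in the deeper Tom+ cells.

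The transcripts of other cells were spread differently over the low-gene cells of the 2 libraries. The 4 nonparenchymal lists together had a median of 796 CPM per cell in the Tom- library, and 54 cells (1.88%) had none of their UMIs. In the Tom+ library the median was 274 CPM, and 86 cells (8.04%) had none. The 5% of cells with most endothelial UMIs held 31.5% of them in the Tom- and 46.7% in the Tom+ library, and for the Kupffer cell list the shares were 25.9% and 48.6%. Nearly all Tom- low-gene cells thus carried some of these UMIs, and in the Tom+ library the top 5% of cells held a larger share. Cells above 2000 CPM of the 4 lists were not rarer in the Tom- library, at 8.14% of low-gene cells against 6.07% in Tom+. The part of the lower marker content of Tom+ cells in these shares was not tested. Leaving out the 234 Tom- and 65 Tom+ low-gene cells and the 43 and 21 reference cells above 2000 CPM of the 4 lists, an alternative chosen after the data were seen, left 71 genes 2-fold higher in the Tom- and 2 in the Tom+ library, and 1 in both. Of the genes named above, Fyb, Csf2ra, Col3a1, Mrc1, Ptgs1 and Clec4f then had Tom+ ratios between 0.40 and 0.97, Col1a1 one of 1.05, and the genes of at least 10 CPM in the Kupffer cell and endothelial lists Tom+ medians of 0.35 and 0.81 (1.08 and 1.27 with all cells). With the condition on Ptprc, Pecam1 and Dcn read at 1500 UMIs, a further alternative chosen after the data were seen, the Tom+ median of the stellate genes counted was 0.82 (1.61 with the rule as given). With all cells, several genes behind these list medians, such as Stab2, Mrc1 and Col1a1, reached 10 CPM in the Tom+ low-gene class only. Such genes could be counted in 1 direction only, so nothing is read from these medians. With low-gene cells of 3000 to 4200 genes only, 3 genes were 2-fold higher in both libraries, and with those of 2000 to 3500 genes 133 were, so that the count rested on the cells with the fewest genes.

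None of the 31 measured secreted plasma proteins, the 17 acute phase genes, the 15 zone 1 and 17 zone 3 genes, or the 21 hepatocyte transcription factors reached 2-fold in either library. Over all genes counted the share past 2-fold was 1.44% in the Tom- and 0.412% in the Tom+ library, so that lists of this size would hold few or no such genes, and nothing is read from these counts or from those of the stress lists below. The cytochrome P450 genes of at least 10 CPM had medians of -0.03 in the Tom- and -0.04 in the Tom+ library, with 9 and 5 of 20 genes above 0. Among the P450 genes that were higher in low-gene cells, Cyp2d10 was at 135 against 71.0 CPM in the Tom- library (log2 0.93) and 158 against 119 CPM in the Tom+ library (0.41). Cyp2a12, under 10 CPM in all 4 sums, had log2 ratios of 1.03 and 0.72. Alb itself had log2 ratios of -0.06 in the Tom- and -0.09 in the Tom+ library. Fibrinogen transcripts were slightly lower, with Fgb at 3715 and 4220 CPM in Tom- and at 3124 and 3452 CPM in Tom+ cells. The zone 1 list had medians of -0.06 and 0.05 and the zone 3 list of 0.05 and -0.01, and Cyp2e1 was at 1124 and 1110 CPM in the Tom- and 2058 and 2056 CPM in the Tom+ library. Over the genes of at least 10 CPM, the p53 targets and death genes had medians of 0.04 and 0.07, heat shock genes of 0.00 and -0.03, and unfolded protein response genes of -0.09 and 0.04. Cdkn1a, the p21 gene, was at 102 and 107 CPM in Tom- and at 82.3 and 84.7 CPM in Tom+ cells. No gene of these 3 lists that reached 10 CPM was 2-fold apart from the reference in either library. Below that minimum, Pmaip1, a death gene of the BCL2 family, was at 1.95 against 0.721 CPM in the Tom- library (62 UMIs in low-gene cells) and at 1.77 against 0.594 CPM in the Tom+ library (21 UMIs). Atf3, a stress-induced transcription factor gene, was at 4.13 against 1.92 CPM in the Tom+ library and at 3.04 against 2.22 CPM in the Tom- library. Among genes of at least 10 CPM, the immediate early list had medians of 0.05 in Tom- and 0.21 in Tom+, with 8 and 10 of 12 genes above 0. Fos was at -0.04 and 0.62. The interferon response list had medians of 0.12 and 0.08. Klf2 (1.24) and Oasl2 (1.33) passed 2-fold in the Tom- library only, and both were under 10 CPM in its reference. The cause was not tested.

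The genes with the smallest ratios in both libraries were shifted by much less than the highest ones. Igfals, the acid-labile subunit that carries IGF in plasma, was at 232 against 281 CPM in the Tom- library (log2 -0.28, -0.31 to -0.24) and at 183 against 214 CPM in the Tom+ library (-0.23, -0.29 to -0.17). Saa2, an acute phase gene, had log2 ratios of -0.21 and -0.42, and Zmpste24, the protease that matures lamin A, of -0.24 and -0.22. Further genes of this rank were Nars, P2ry4, Raet1d, Paqr7, Bod1, Lgr4 and Tvp23b, all between -0.28 and -0.19. Without any nonparenchymal UMI, a setting with few cells, Saa2 turned to 0.03 in the Tom- and 2.01 in the Tom+ library, Paqr7 to 0.58 in Tom+, and Tvp23b and Zmpste24 to 0.27 and 0.0026 in Tom-, and with members of 2000 to 3500 genes Bod1 turned to 0.077 in Tom+. Saa2 shares much of its sequence with Saa1, and probes can be shared within such families.

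Some single genes, chosen here after their values were seen, differed more in the Tom- library. mt-Co1, a cytochrome oxidase subunit encoded in the mitochondrial genome, was at 1087 CPM in low-gene and 516 CPM in reference Tom- hepatocytes (log2 1.07), and at 1450 and 1071 CPM in the Tom+ library (0.44). Atp5a1, the alpha subunit of ATP synthase, was at 51.9 and 23.99 CPM in the Tom- and at 57.2 and 43.3 CPM in the Tom+ library. Cox6c, a further cytochrome oxidase subunit, followed the same order with 51.1 and 24.97 CPM, and 52.5 and 41.4 CPM. Other genes of the respiratory chain did not, for instance mt-Nd1 (503 and 562 CPM in the Tom- library, 490 and 562 CPM in the Tom+ library), and the median log2 ratio was 0.05 in the Tom- and -0.03 in the Tom+ library for the mitochondrial genome, and 0.02 and 0.03 for the nuclear respiratory chain genes, among which Ndufa4 was at -0.22 and -0.10. Apoa1, a gene of the rule, was lower in the deepest Tom- cells, with 3356 CPM at 3500 to 4200 genes, 2768 CPM from 5000 to under 6000 and 2122 CPM at 6000 to 7000. In the Tom+ library the corresponding values were 3720, 3853 and 3431 CPM. Igf1, the gene of the main liver growth factor, was at 877 and 610 CPM in the Tom- and 791 and 686 CPM in the Tom+ library.

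Cyp2e1 had nearly the same mean in low-gene and reference cells, and differed in how it was spread over cells. The rule asked for 1 UMI of Cyp2e1 or Cyp2f2, so the values of both are a description. Other zonal genes shifted both ways in the Tom- library, from Cyp2f2 (154 against 184 CPM, log2 -0.26) and Hsd17b13 (523 against 607 CPM, -0.21) to Oat (60.3 against 45.0 CPM, 0.42) and Igf1 (0.52). In cells thinned to 5000 UMIs, the variance of Cyp2e1 UMIs was 3.70 times their mean in Tom- low-gene hepatocytes and 8.30 times in the reference. For Tom+ cells the values were 6.28 and 7.31. At least 15 Cyp2e1 UMIs were found in 4.73% of Tom- low-gene cells (130 of 2750) and 13.6% of the reference (520 of 3820), and at most 1 UMI in 15.7% and 40.0%. Among Tom+ cells the shares were 32.3% and 34.4%, and 11.9% and 17.9%. Tom- low-gene hepatocytes were gathered at intermediate values, with a median of 5 Cyp2e1 UMIs and quartiles of 2 and 8, while their reference had a median of 2 and quartiles of 1 and 9. Outside the rule, Sds, a serine dehydratase of zone 1, also had a lower variance over mean in low-gene cells. The values were 3.37 and 5.66 in Tom- and 7.84 and 8.32 in Tom+ cells. Those of Glul were 1.97 and 3.66, and 5.00 and 5.40. For Sds in Tom+ cells the standard deviation was 6.11 in low-gene and 6.05 in reference cells, with quartiles of 0 and 8 in both. A lower value was not particular to zonal genes. Serpina3k, a plasma protease inhibitor gene, was at 1.42 and 1.89 in Tom- and at 1.95 and 2.30 in Tom+ cells. Ttr was lower in Tom- low-gene cells (5.87 and 8.49) but not in Tom+ ones (11.3 and 10.6). Pck1, a further zone 1 gene, was higher in Tom+ low-gene cells (8.16 and 7.94). So was the LINE-1 probe L1Md_A in both libraries (4.63 and 3.81, 5.40 and 3.62).

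**Figure D3:**
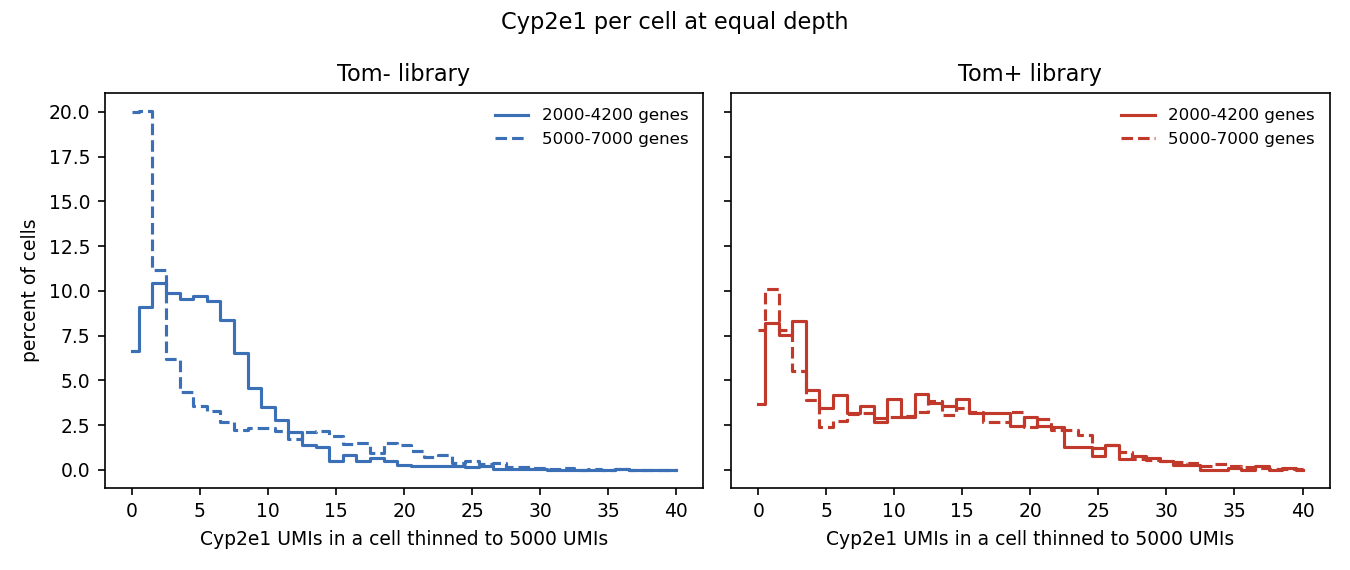
Percent of cells (y axis) with each number of Cyp2e1 UMIs after thinning to 5000 UMIs (x axis, shown to 40), for low-gene (solid) and reference (dashed) hepatocytes, with 1 panel per library. The Tom- low-gene curve has its quartiles at 2 and 8 UMIs, whereas 40.0% of Tom- reference cells had at most 1.

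Over the genes with a mean of at least 0.5 UMIs at this depth, the variance over the mean was higher in the reference for 60.3% of 1450 genes in the Tom- library and for 35.0% of 1513 genes in the Tom+ library. The summed zone 1 and zone 3 lists were opposed across cells in both classes, with Pearson's r of -0.71 over 2750 Tom- low-gene and -0.82 over 3820 reference cells, and of -0.80 over 1010 and -0.82 over 3231 Tom+ cells. These coefficients describe cells of 1 library that share its depth and its background. The variance over the mean of Cyp2e1, Sds and Glul was thus lower in low-gene cells of both libraries, by more in the Tom- library. In the Tom- library the content of transcripts from other cell types per low-gene cell was also higher. The difference between the libraries and the part of that content in the variance over the mean were not tested.

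When the low-gene hepatocytes of both libraries were clustered together, 7 clusters were found, of which the largest held 1762 cells, 1689 of them Tom-. This largest cluster held 58.7% of the Tom- and 6.82% of the Tom+ low-gene hepatocytes, so the 2 libraries were unlike mixes of cells. It had none of the zone 1 or zone 3 markers raised 1.5-fold over the other low-gene cells. All 10 Kupffer cell markers were raised, as were 6 of 10 endothelial and 3 of 10 stellate markers. Cyp2e1 (1141 CPM) and Sds (1259 CPM) were both at intermediate levels. Every cell of this cluster had at least 1 UMI of the 4 nonparenchymal lists, with a median of 1062 CPM. Its leading genes were Colec11, Sod3, Col3a1 and Ecm1, and it was given no name. A zone 1-like cluster of 759 cells (8 of 9 zone 1 markers raised) had Sds at 2499.2 CPM and Cyp2e1 at 322 CPM, and a zone 3-like cluster of 649 cells (11 of 11 markers) had Cyp2e1 at 3340 CPM and Sds at 245 CPM. Both zonal ends of the lobule were therefore found among low-gene hepatocytes, with 248 and 319 CPM of the nonparenchymal lists as medians.

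The 4 other clusters were named by number and leading genes. Cluster 3 held 401 cells and was led by Nr1i3, the receptor CAR, and Sult2a2, a sulfotransferase gene. Cluster 4 held 297 cells with the highest Alb (152806 CPM) and was led by Spp1 and Gpnmb, genes known from macrophages of injured liver, with Gpnmb at 125 CPM and all 10 Kupffer cell markers raised. Cluster 5 held 60 cells led by endothelial genes such as Dll4, a Notch ligand, with Stab2 at 711 CPM beside Alb at 125717 CPM. Cluster 6 consisted of 18 Tom+ cells with Nupr1 at 454, Derl3 at 295 and Trib3 at 295 CPM, all known as genes induced by stress of the endoplasmic reticulum, against 1.08, 0.711 and 12.6 CPM in other low-gene cells. These genes defined the clusters and are no result of a comparison. At a resolution of 0.3 all cells of the largest cluster stayed together, and at 0.8 a single cluster held 50.5% of them.

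The sort was checked with the reporter. tdTomato was at 956 CPM in Tom+ low-gene hepatocytes (11346 UMIs) and 114 CPM in Tom- ones (3630 UMIs), a log2 ratio of 3.07 (3.02 to 3.12). In the reference the levels were 897 and 76.1 CPM and the ratio 3.56 (3.53 to 3.59). The reporter thus separated the libraries in low-gene cells, with a smaller gap than in the reference, and Tom- low-gene cells had more of it than Tom- reference cells. The custom p16 probe gave 11 UMIs in Tom- and 8 in Tom+ low-gene hepatocytes, and the standard Cdkn2a probes, for the locus that encodes p16, gave 17 and 2, too few for a ratio. The LINE-1 probe L1Md_A was at 3329 CPM in Tom- and 4057 CPM in Tom+ low-gene cells, and at 3026 and 3532 CPM in the reference.

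Among low-gene hepatocytes, 28 of 8119 genes were at least 2-fold higher in the Tom+ than in the Tom- library (0.345%) and 6 were 2-fold lower (0.0739%). In the reference 25 of 7852 genes were higher (0.318%) and 1 was lower (0.0127%). Some of the 28 genes, such as Rhbg at 7.06 CPM and Tenm3 at 4.49 CPM in Tom- low-gene cells, reached 10 CPM in the Tom+ library only. They could be counted in 1 direction only. Both counts of higher genes include tdTomato, on which the fractions were sorted and which had the largest ratio. The genes next in rank in low-gene cells included several of the cells around the central vein. Slc1a2, a glutamate transporter gene on chromosome 2 (102658659-102790784, plus strand), was at 101 CPM in Tom+ and 29.9 CPM in Tom- low-gene hepatocytes (log2 1.75), beside 99.5 and 31.0 CPM in the reference (1.68). Glul was at 130 and 48.3 CPM (1.43, reference 1.72), Oat, an ornithine aminotransferase, at 168 and 60.3 CPM (1.48, reference 1.71), and Rhbg, an ammonium transporter, at 19.0 and 7.06 CPM (1.43, reference 1.31). Of the 17 zone 3 genes, 7 were 2-fold higher in Tom+ low-gene cells, with a median of 0.90, whereas the 15 zone 1 genes had a median of -0.39 and none past 2-fold, and the median of all genes was 0.06. Gstm3, a glutathione transferase gene (log2 1.47, reference 1.35), and Cyp7a1, the rate-limiting enzyme of bile acid synthesis (589 and 239 CPM, log2 1.30, reference 1.38), were also higher. The medians of both zone lists had the same direction in the reference, at 0.96 for zone 3 and -0.48 for zone 1, without a test of their difference. Single genes differed both ways, with smaller ratios of Glul and Oat and larger ones of Slc1a2 and Rhbg in low-gene cells. In the reference 20 of the 28 genes were counted too. Without any nonparenchymal UMI, Rhbg (0.50) and Gstm3 (0.80) were no longer 2-fold higher. The zone 3-like cluster held 46.3% of Tom+ and 5.35% of Tom- low-gene cells (495 and 154), so unlike mixes of cells were compared. The part of this mix in the ratios was not tested.

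The 6 genes lower in Tom+ low-gene cells were Hba-a2, a haemoglobin gene (1.26 and 10.1 CPM, log2 -3.003), Marco, a scavenger receptor of Kupffer cells (12.6 and 30.4 CPM, -1.27), Gpnmb (13.7 and 31.6 CPM, -1.21), Ltbp4, a matrix protein that binds latent TGF-beta (-1.09), Sod3, the extracellular superoxide dismutase (-1.04), and Ctgf, a matricellular growth factor gene (-1.02). Hba-a2 reached 10 CPM in the Tom- library only. In the reference its log2 ratio was -2.54, at under 10 CPM in both libraries. There the ratios of Marco, Ltbp4, Sod3 and Ctgf were -0.95, -0.65, -0.34 and -0.42, and that of Gpnmb was 1.31. The Kupffer cell and endothelial lists were also lower in Tom+ low-gene cells (389 against 589 CPM and 139 against 240 CPM), and the part of that marker content in these 6 differences was not tested. Gpnmb differed most between the classes. It was at 31.6 CPM in low-gene and 3.15 CPM in reference cells of the Tom- library, and at 13.7 and 7.82 CPM in the Tom+ library. The count of 6 was 33 when cells above 2000 CPM of the nonparenchymal lists were left out, and 26 with low-gene cells of 3000 to 4200 genes. Without the condition on Ptprc, Pecam1 and Dcn, chosen after the data were seen, Ltbp4 (-0.16), Sod3 (-0.11), Marco (-0.92) and Gpnmb (-0.76) were no longer 2-fold lower, and with members of 2000 to 3500 genes Sod3 (-0.96), Marco (-0.91) and Gpnmb (-0.79) were not.

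**Figure D4:**
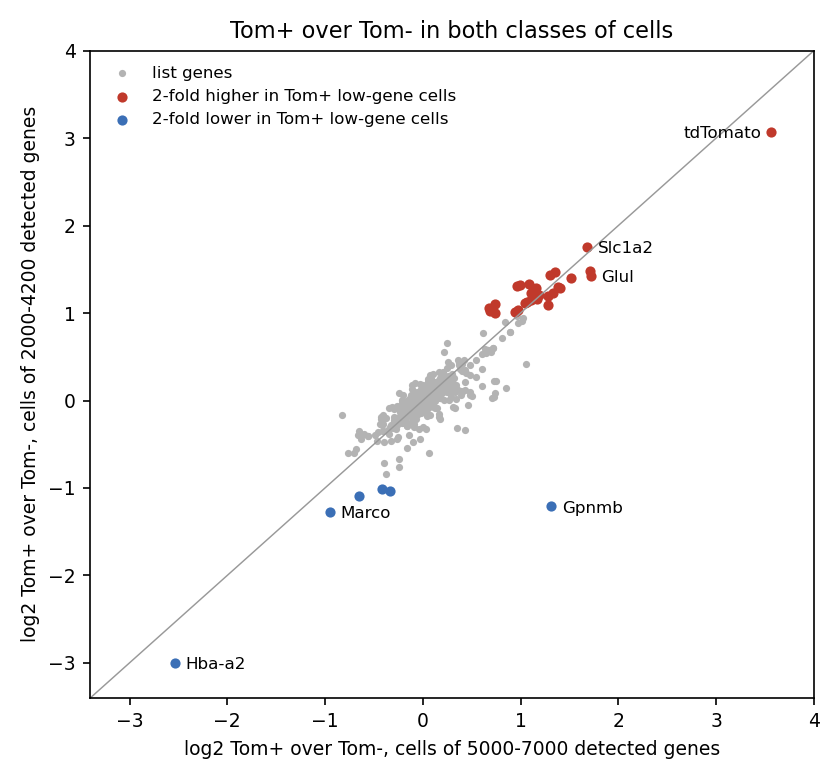
Log2 ratio of Tom+ over Tom- in reference (x axis) and low-gene (y axis) hepatocytes. Grey points are genes of the lists, without the marker lists, that passed the minimum in low-gene cells. Red and blue points are genes 2-fold higher or lower in Tom+ low-gene cells, and the line marks equality. Red points lie near the line, with Slc1a2 at 1.68 and 1.75, whereas Gpnmb lies at 1.31 and -1.21.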

How the data were processed

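UMI counts per gene and barcode were used as deposited. Fixed cells were profiled with a probe set (10x Flex) plus 3 pairs of tdTomato probes, and the authors made the UMI counts with Cell Ranger 7.2.0 on mm10, per the submitters' processing notes. The matrices hold 19073 features, with 681279005 Tom- and 715333889 Tom+ UMIs, so precision is set by counting and by having 1 library per group. Ribosomal protein genes, Actb, Malat1 and Neat1 are not in the probe set. Levels of different genes are not comparable. Members, gene lists and comparisons were chosen with earlier results of these data known. Counts were summed per class and library. Ratios have exact conditional intervals, shares Clopper-Pearson intervals (95%), and counts of genes used a pseudocount of 0.5 UMIs. No p-value was computed. Named genes are the 10 largest and 10 smallest ratios of low-gene over reference cells and the 5 largest and 5 smallest of Tom+ over Tom-, besides list and rule genes. Genes leading a cluster and Ctgf were named after their values were seen. No doublet caller was run and no doublets were removed. Members were clustered on 2000 variable genes, 30 components and 20 neighbours (Leiden, resolution 0.5). Python 3.11.15, numpy 2.4.6, scipy 1.17.1, pandas 2.3.3, scanpy 1.11.5, leidenalg 0.10.2 and matplotlib 3.10.9 were used, and the calculations were tested on simulated data. Gene positions are from GENCODE vM21 (mm10).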

Additional observations from a re-analysis of the deposited data

Results flagged for a closer look

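Saa3, an acute phase gene of the serum amyloid A family, differed in direction between the libraries. Its log2 ratio of low-gene over reference hepatocytes was 0.57 in the Tom- library (27.1 and 18.3 CPM) and -0.21 in the Tom+ library (21.4 and 24.7 CPM). Of 398 list and named genes counted in both libraries, 31 had opposite directions with both counting intervals off 0, and 1 of these was at least 0.5 apart. With 1 library per group the difference was not tested, and probes may be shared with the related Saa genes.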

How the results depend on the processing

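The count of 31 genes 2-fold higher in low-gene than in reference hepatocytes in both libraries was 133 with members of 2000 to 3500 genes, 3 with members of 3000 to 4200, 8 with at least 20 UMIs of Alb and Apoa1, 3 without any nonparenchymal UMI (54 Tom- and 86 Tom+ members and only 16 and 20 reference cells left, 0 of the 31 among the 3 genes, and no value for 29 gene ratios with under 20 UMIs), 101 as a mean over cells, 84 after thinning to 1500 UMIs, 2 at a minimum of 50 CPM, 820 without a minimum, and 52 with the 20 highest genes left out of the total. Of alternatives chosen after seeing the data, it was 341 without the condition on Ptprc, Pecam1 and Dcn, 114 with that condition read at 1500 UMIs, and 1 without cells above 2000 CPM of nonparenchymal lists. The count of 0 genes lower in both libraries was 3 without nonparenchymal UMIs and 2 without a minimum, and the 0 of each library (Tom-, Tom+) became 139 and 89, 20 and 53, and, thinned, 1 and 9. The 28 genes higher in Tom+ became 198, 43, 14 and 117 without nonparenchymal UMIs, thinned, at 50 CPM and without a minimum. The 6 lower genes became 20, 26, 30, 79, 37, 14, 0, 340 and 24 with members of 2000 to 3500 or 3000 to 4200 genes, 20 UMIs of Alb and Apoa1, no nonparenchymal UMI, thinning, median-of-ratios scaling, 50 CPM, no minimum, and without the highest genes, and 2, 3 and 33 under the 3 added alternatives above. The tdTomato log2 ratio of Tom+ over Tom- low-gene hepatocytes, 3.07, was 2.93 with members of 2000 to 3500 genes, 2.98 thinned and 3.01 with median-of-ratios scaling. The cause was not tested. Genes per cell at equal depth stayed higher in members at 1000 and 3000 UMIs. No paired analysis was possible because neither fraction has more than 1 library. Depth limits all genes under 10 CPM.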
